A study of Mus musculus with 6 samples.

Results

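The core spliceosome component genes were examined in mouse primary oligodendrocyte precursor cells (mOPCs) after knockdown of Qk. The genes were taken by symbol, as every gene in the deposited tables whose name begins with Snrp, with Sf3a or Sf3b, with Prpf and a digit, with Lsm and a digit, or with U2af. This rule gave 48 of 23038 genes, and it used no measured value. Cells from mouse embryos, purified by immunopanning (capture on antibody-coated dishes), were transfected with control siRNAs (siNC) or with siRNAs against Qk (siQk) and collected 72 hours later. Each group had 3 biological replicates. The study used 3 siRNAs against Qk, and its supplement describes 3 replicates transfected with 3 different siRNAs. If each siQk library had its own siRNA, differences between siRNAs and between replicates cannot be told apart. Neither the siRNA given to each siQk library nor the mouse strain is stated in the sources used here. Poly(A) RNA was sequenced with a kit that does not record the strand.

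The spliceosome removes introns from pre-mRNA. It is built from small nuclear ribonucleoprotein particles (snRNPs), in which each of the U1, U2, U4 and U5 small nuclear RNAs carries a ring of Sm proteins and U6 carries a ring of LSm proteins, and U2AF and the SF3a and SF3b complexes bring the U2 snRNP to the 3′ end of the intron. Qk encodes the Qki proteins, RNA-binding proteins of glial cells that regulate the splicing, stability and localization of their target mRNAs and are needed for myelination.

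Library totals ranged from 58166490 to 141045937 tags. Qk itself was measured at 209, 206 and 163 RPKM (tags per kilobase of exon, scaled to the library total) in siNC replicates 1 to 3 and at 51.3, 76.6 and 36.2 RPKM in siQk replicates 1 to 3. It fell by 1.98 on the log2 scale (SE 0.28, adjusted p = 0.00311, edgeR quasi-likelihood test with Benjamini-Hochberg adjustment). Of the OPC markers, 3 of 7 were higher in siQk and none was lower, with a summed level of 831 to 880 RPKM in siNC and 1116 to 1251 RPKM in siQk. Of the myelin genes, 7 of 8 were lower (3307 to 5823 RPKM in siNC, 1363 to 2065 RPKM in siQk), and of the cell cycle genes 12 of 18 were higher (100.2 to 123 RPKM in siNC, 177 to 313 RPKM in siQk). Astrocyte markers were lower in 4 of 6 tested (207 to 307 RPKM in siNC, 179 to 207 RPKM in siQk) and neuron markers higher in 4 of 11 tested (328 to 445 and 377 to 408 RPKM). Of both lists only Gja1, for astrocytes, and Stmn2, for neurons, stayed under 0.1 RPKM in every library. The other markers differed widely in level. S100b for astrocytes had means of 139.7 RPKM in siNC and 156.5 RPKM in siQk, and Tubb3 for neurons 123.2 and 91.9 RPKM. Aqp4 for astrocytes had means of 0.458 and 0.386 RPKM, and Rbfox3 for neurons 0.551 and 0.408 RPKM. S100b and Tubb3 were not called (log2 fold changes of 0.007 and −0.57), unlike the called genes of their lists. Whether these levels came from astrocytes and neurons was not tested. The summed microglia markers did not pass 3.31 RPKM and those of fibroblasts and vessels 0.685 RPKM in any library, with C1qa and Cldn5 at 0 throughout. P2ry12, the only microglia marker tested, was at 0.669, 3.20 and 1.19 RPKM in siNC and at 0.152, 0.186 and 0.287 RPKM in siQk. It fell by 3.16 on the log2 scale (adjusted p = 0.00886, edgeR). The proliferation and differentiation markers therefore moved in the same libraries as the genes described here, and their part in the results was not tested. In such bulk samples, fewer cells of a type and less RNA per cell cannot be told apart.

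The core spliceosome genes were mostly higher after Qk KD, by small amounts. All 48 genes passed the filter on low counts. Calls required both P below 0.01 and FDR below 0.1, and by this rule 17 genes (35.4%) rose, 1 gene (2.08%) fell and 30 were not called. Among all 12505 genes tested, 13.8% were called higher and 17.2% lower, 31.0% in all, against 37.5% of the core genes. The log2 fold change was above 0 for 43 of the 48 genes (89.6%) and for 51.2% of all genes tested. Its median was 0.23 over the core genes, with a range from −0.61 to 0.77, and 0.01 over all genes tested.

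The 17 genes that rose did so by 0.23 to 0.77 on the log2 scale, with a median fold of 1.27, and only 5 of them passed 0.4. The gene that rose most was Sf3b3, a subunit of SF3b, and the gene that fell was Lsm14a, whose protein belongs to cytoplasmic mRNA granules and not to the spliceosome. The 30 genes not called had log2 fold changes from −0.27 to 0.55, and 26 of these values were above 0. Their unadjusted P was between 0.01 and 0.05 for 11 of them.

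**Figure D1:**
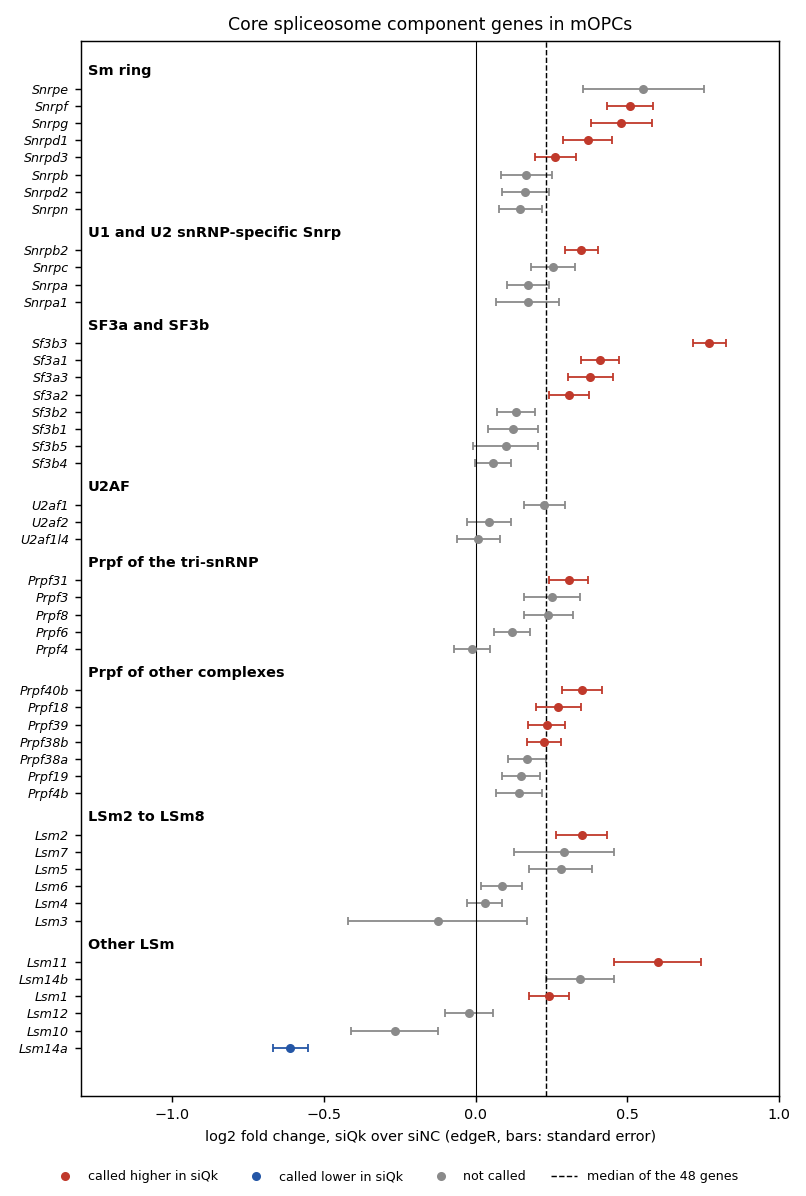
Fitted log2 fold change of siQk over siNC for 47 of the 48 genes, grouped by the particle or complex that the protein belongs to. Points are the edgeR estimates, horizontal bars the standard error, red and blue points the 17 and 1 genes called higher and lower, and the dashed line the median of 0.23; 42 points lie to the right of 0.

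Together the 48 genes took 0.467%, 0.481% and 0.522% of all tags in siNC replicates 1 to 3 and 0.628%, 0.637% and 0.599% in siQk replicates 1 to 3. The 3 siQk libraries were all above the 3 siNC libraries. The mean share was 0.490% ± 0.0281 (SD, n = 3) in siNC and 0.621% ± 0.0200 (SD, n = 3) in siQk, a ratio of 1.27 (two-sided p = 0.1 by exact permutation, which cannot go lower with 3 against 3 libraries). With totals scaled by TMM factors, which correct for the make-up of a library, the ratio was 1.14 and the groups still did not overlap (exact permutation p = 0.1). RPKM values are scaled to library totals and the fitted fold changes to TMM-scaled totals, so that RPKM differences between the groups lie higher than the fitted ones: they are larger for genes that rose and smaller for genes that fell. RPKM ranges of the groups did not overlap for 44 genes with siQk higher and for 1 with siQk lower, where 41.9% and 16.4% of all genes tested gave the same. After TMM scaling these were 32 genes and 1 gene, against 27.8% and 26.5% of all genes tested.

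Scaling moved the whole distribution. Without TMM factors the median log2 fold change of all genes tested was 0.16 and that of the core genes 0.38, so that the core genes lay 0.22 above all genes with and without the factors. A change of scaling shifts all genes by nearly the same amount, so it can hardly move this distance. A change of cutoff alone uses the same fit and leaves the distance as it is. Over 18 settings, these and the reported one included, the distance ranged from 0.19 to 0.26. The number of core genes called higher depended more on the setting. It was 30 of 48 without TMM factors, where 23.9% of all genes tested were called higher and 10.9% lower. With single libraries left out it was 10 without siNC replicate 1, where 10.5% of all genes tested were called higher, and 10 without siNC replicate 2, where 12.7% were. It was 6 without siQk replicate 1, against 8.06% of all genes, and 8 without siQk replicate 2, against 8.83%. The calls of 7 genes held in all 6 of these fits: Sf3b3, Sf3a1, Sf3a3, Snrpf, Snrpb2 and Prpf40b, which rose, and Lsm14a, which fell. With a cutoff of 1 on the absolute log2 fold change (FDR below 0.05), no core gene was called, against 2.61% of all genes higher and 4.96% lower.

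**Figure D2:**
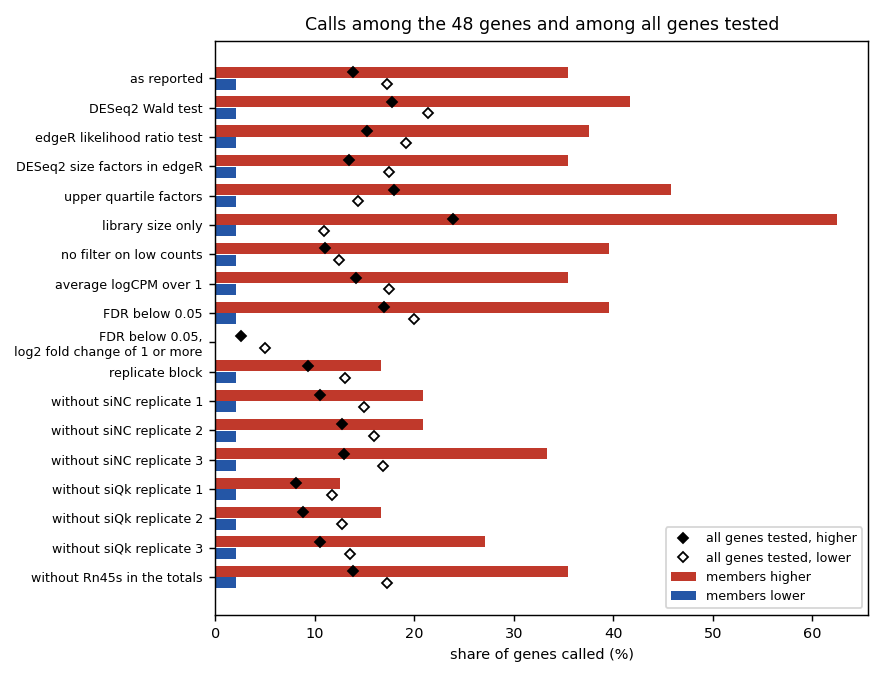
Share of genes called higher (red bars, black diamonds) and lower (blue bars, white diamonds) under each setting, in percent of the 48 core genes (bars) and of all genes tested (diamonds). The red bar lies above the black diamond in every setting but the cutoff at a log2 fold change of 1, where no core gene was called.

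The Sm genes encode the ring that every Sm-class snRNP shares. Of the 8, 4 rose and none fell (Snrpf, Snrpg, Snrpd1 and Snrpd3), with a median log2 fold change of 0.32 and all 8 values above 0. Their summed level was between 830.4 and 874 RPKM in the siNC libraries and between 1111 and 1197 RPKM in the siQk libraries. The Sm genes were not equally abundant per length of exon. Snrpd3 had the highest mean level in siNC (177 RPKM) and Snrpg the lowest (21.1 RPKM), although the proteins of these 2 genes enter the ring in equal numbers.

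Snrpf, which encodes SmF, was at 28.8, 27.9 and 30.8 RPKM in siNC and at 48.04, 46.9 and 43.4 RPKM in siQk. The groups did not overlap, and the gene rose by 0.51 on the log2 scale (SE 0.075, adjusted p = 0.00378, edgeR). Snrpg, which encodes SmG, was at 20.9, 19.2 and 23.2 RPKM in siNC and at 33.6, 34.8 and 29.8 RPKM in siQk. It rose by 0.48 (SE 0.1, adjusted p = 0.0117, edgeR), a call lost without siQk replicate 1 (0.46). Snrpd3, encoding SmD3, was at 173, 168 and 190.3 RPKM in siNC and at 247, 238 and 224 RPKM in siQk, a rise of 0.26 on the log2 scale. Snrpd1, encoding SmD1, rose by 0.37 to a mean of 139.7 RPKM. The call of Snrpd1 was lost without siQk replicate 1 or 2, and that of Snrpd3 was kept only without siNC replicate 3, with log2 fold changes of 0.31 to 0.42 and 0.21 to 0.30 over the fits with a library left out. Counting was without strand and Snrpf, at chr10:93583029-93589658 of mm10, overlaps the rows of Ccdc38 (log2 fold change 0.42, adjusted p = 0.0498, edgeR, not called) and 4933408J17Rik (0.52, adjusted p = 0.00982, edgeR), so that part of their reads cannot be told apart.

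Snrpe, which encodes SmE, had the largest estimate of the Sm genes but was not called. It was at 143, 149.8 and 91.6 RPKM in siNC and at 227, 205 and 196 RPKM in siQk. The groups did not overlap, and siNC replicate 3 was far below the other two siNC libraries. The log2 fold change was 0.55 with an SE of 0.20 (adjusted p = 0.0683, edgeR), and without siNC replicate 3 it was 0.34 and called (adjusted p = 0.0230, edgeR).

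Snrpb and Snrpn encode SmB and its close relative SmN, which is found mainly in neurons. Snrpb was at 145, 141 and 178 RPKM in siNC and at 192, 200.3 and 186 RPKM in siQk (log2 fold change 0.17, adjusted p = 0.159, edgeR). Snrpn was at 134, 137 and 149 RPKM in siNC and at 173, 161 and 181 RPKM in siQk (0.15, adjusted p = 0.143, edgeR). Neither was called, and the 2 genes were about equally abundant per length in these cultures. Snurf, which lies within the Snrpn locus and shares reads with it, was at 0.12 and not called. The gene for SmD2, Snrpd2, was at 0.16 and not called.

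The CCAAT word, which NF-Y binds, was looked for in the 200 bases before the start of each gene (RefSeq, GRCm38.p6). It was present on either strand in 17 of the 38 core genes whose promoter was matched (44.7%) and in 37.0% of 9975 tested genes. Of 5 other motifs looked for in the same way, TATAAA was in 2 of the 38 core promoters (5.26%) and 5.48% of the tested genes. The ETS word CCGGAAGT was in 3 (7.89%) and 6.42%. The YY1 motif was in 1 core promoter alone, that of Lsm7 (2.63%), and in 0.692% of the tested genes. The NRF1 motif and the E2F words TTTGGCGC and TTTCCCGC were in none of the 38, against 1.84% and 2.53% of the tested genes. The promoters of the Sm genes with the largest called changes are shown, with the CCAAT word in capitals, as CCAAT or its reverse complement ATTGG, for Snrpf (chr10:93589659-93589858, minus strand, 3 words) and for Snrpg (chr6:86371340-86371539, plus strand, 1 word). A match is a description of the sequence and no binding was measured.
Snrpf: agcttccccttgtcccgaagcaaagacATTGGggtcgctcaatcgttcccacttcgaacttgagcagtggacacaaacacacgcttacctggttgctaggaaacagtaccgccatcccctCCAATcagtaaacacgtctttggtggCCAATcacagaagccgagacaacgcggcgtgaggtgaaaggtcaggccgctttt
Snrpg: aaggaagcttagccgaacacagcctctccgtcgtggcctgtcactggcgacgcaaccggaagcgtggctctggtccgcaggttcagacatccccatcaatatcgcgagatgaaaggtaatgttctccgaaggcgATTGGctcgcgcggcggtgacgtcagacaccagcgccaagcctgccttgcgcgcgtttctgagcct

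The other Snrp genes encode proteins that belong to the U1 or the U2 snRNP alone. Of these 4, Snrpb2 rose and the others were not called, with a median log2 fold change of 0.21 and no value below 0. Snrpb2, which encodes a U2-specific protein, was at 59.0, 64.5 and 67.4 RPKM in siNC and at 92.5, 91.6 and 85.5 RPKM in siQk. The groups did not overlap and the gene rose by 0.35 (SE 0.055, adjusted p = 0.00462, edgeR). Snrpc, encoding a U1-specific protein, was at 28.8, 30.5 and 32.4 RPKM in siNC and at 40.4, 42.9 and 38.4 RPKM in siQk. Its log2 fold change of 0.26 missed the cutoff narrowly, with an unadjusted P of 0.01001 in the edgeR fit. Snrpa, of U1, and Snrpa1, of U2, both had a log2 fold change of 0.17.

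SF3a and SF3b are parts of the U2 snRNP that hold it at the branch point, the adenosine that opens splicing. All 3 genes of SF3a rose, and of SF3b Sf3b3 alone among 5 members was called. Over the 8 genes the median log2 fold change was 0.22, and none was below 0.

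Sf3b3 encodes SF3B130, a large scaffold subunit next to SF3B1. It was at 27.1, 28.6 and 29.2 RPKM in siNC and at 54.3, 52.8 and 53.6 RPKM in siQk. The libraries of each group lay close together and the groups were far apart, with means of 28.3 ± 1.10 and 53.6 ± 0.707 RPKM (SD, n = 3). The fitted change was 0.77 on the log2 scale, or 1.71-fold (SE 0.054, adjusted p = 0.000506, edgeR), and it lay between 0.76 and 0.79 with any library left out. The gene (chr8:110810491-110846806, mm10) overlaps Cog4 by 207 bases, and Cog4 was not called (log2 fold change −0.04).

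The other SF3b genes had smaller values. Sf3b1, which encodes the subunit that contacts the branch point, was at 127, 121 and 147 RPKM in siNC and at 160.3, 166 and 152 RPKM in siQk, a log2 fold change of 0.12 that was not called. Sf3b4 was the least abundant gene of both complexes in siNC, at 18.2, 18.8 and 19.7 RPKM, and was at 22.0, 22.2 and 21.3 RPKM in siQk (0.06, not called). Sf3b2 and Sf3b5 had log2 fold changes of 0.13 and 0.10. Sf3b6, which the tables list under an older symbol and which the symbol rule therefore leaves out, had −0.06 (adjusted p = 0.543, edgeR). The ratio of Sf3b3 to Sf3b1 within a library, chosen after these values were seen and not tested, was 0.213, 0.235 and 0.199 in siNC and 0.338, 0.319 and 0.353 in siQk.

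Sf3a1 encodes the subunit of SF3a that links it to the U2 particle. It was at 20.5, 20.4 and 20.4 RPKM in siNC and at 30.1, 29.7 and 30.8 RPKM in siQk. The spread within each group was small beside the difference, and the gene rose by 0.41 (SE 0.061, adjusted p = 0.00397, edgeR). Sf3a3 rose by 0.38 (adjusted p = 0.00918, edgeR) and Sf3a2 by 0.31 (adjusted p = 0.0124, edgeR). The call of Sf3a2 was lost without siQk replicate 1 or 2, with log2 fold changes of 0.28 to 0.35 over the fits with a library left out.

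**Figure D3:**
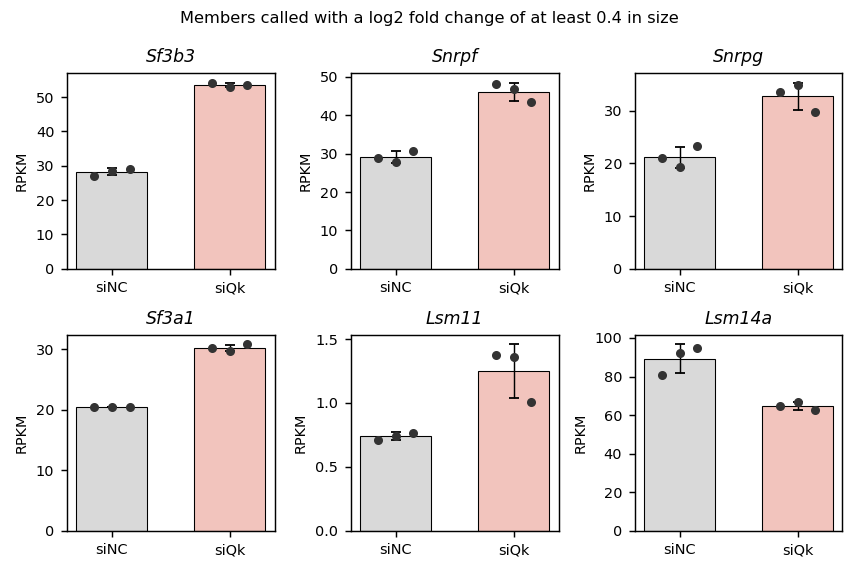
RPKM of the 6 core genes called with a log2 fold change of 0.4 or more in size. Bars are group means from 0, error bars the SD over 3 libraries and points the libraries; the groups do not overlap in any panel, and Lsm14a alone is lower in siQk.

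The U2AF genes encode the dimer that recognizes the polypyrimidine tract and the AG at the end of the intron. None of the 3 was called, and their median log2 fold change was 0.04, nearer to that of all genes tested than in the other groups. U2af2, for the large subunit, was at 96.4, 90.6 and 104.9 RPKM in siNC and at 113, 115 and 105.6 RPKM in siQk (0.04). U2af1, for the small subunit, was at 45.8, 47.0 and 51.7 RPKM in siNC and at 66.4, 62.6 and 58.7 RPKM in siQk (0.23, adjusted p = 0.0401, unadjusted P = 0.0136, edgeR). U2af1l4, a relative of the small subunit, was at 15.3, 16.5 and 15.3 RPKM in siNC and at 17.2, 18.4 and 16.9 RPKM in siQk (0.01). RPKM of all 3 genes were higher in every siQk library than in any siNC library, and after TMM scaling this held for U2af1 alone.

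The Prpf genes were divided into those of the U4/U6.U5 tri-snRNP and the rest. Of the 5 tri-snRNP genes, Prpf31 rose and 4 were not called, with a median log2 fold change of 0.24. Prpf31, which binds the U4 small nuclear RNA, rose by 0.31 (adjusted p = 0.0117, edgeR) from a mean of 18.5 to 25.4 RPKM, a call lost without siQk replicate 1 (0.29). Prpf8, the protein at the heart of the catalytic centre, was at 62.2, 66.4 and 78.8 RPKM in siNC and at 88.5, 92.4 and 90.5 RPKM in siQk. Its log2 fold change of 0.24 was not called (adjusted p = 0.0542, edgeR), with siNC replicate 3 nearest to the siQk libraries, and without that replicate it was 0.31 and called, as was Prpf3 (0.35). Prpf4 was at 9.22, 9.21 and 9.71 RPKM in siNC and at 10.6, 10.3 and 10.04 RPKM in siQk. Its fitted change was −0.01 on the log2 scale and 0.14 without TMM factors.

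Of the 8 other Prpf genes, 4 rose (Prpf40b, Prpf18, Prpf39 and Prpf38b) and 4 were not called, with a median log2 fold change of 0.23 and none below 0. Prpf40b, a relative of a yeast U1 snRNP protein that bridges the ends of the intron, was at 9.49, 10.9 and 10.2 RPKM in siNC and at 13.9, 15.0 and 14.4 RPKM in siQk. The groups did not overlap, and it rose by 0.35 (SE 0.066, adjusted p = 0.00851, edgeR). It overlaps Fam186b, which was too low to be tested. Prpf19, a ubiquitin ligase that helps to activate the spliceosome, was the most abundant of this group, at 41.8, 43.4 and 44.7 RPKM in siNC and 54.8, 55.3 and 50.003 RPKM in siQk (0.15, not called). Prpf18, which acts in the second step of splicing, rose by 0.27, Prpf39 by 0.23 and Prpf38b by 0.23. Each of these last 3 calls was lost in 5 or 6 of the 6 fits with a library left out. Over all 6 fits the log2 fold changes were 0.21 to 0.32, 0.21 to 0.28 and 0.19 to 0.25. Prpf18 kept its call only without siNC replicate 3, and Prpf39 only without siQk replicate 3. Prpf39 also overlaps Fkbp3 by 955 bases, and Fkbp3 rose (0.37, adjusted p = 0.0149, edgeR).

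The LSm2 to LSm8 proteins form the ring on U6, and a ring with LSm1 in place of LSm8 acts in mRNA decay in the cytoplasm. Of the 6 ring genes that the rule covers, Lsm2 rose and 5 were not called, with a median log2 fold change of 0.18. Lsm2 rose by 0.35 (adjusted p = 0.0198, edgeR) from a mean of 12.5 to 17.6 RPKM, and the call was lost in 5 of 6 fits with a library left out, all but that without siQk replicate 3 (0.30 to 0.37 where it was lost). Lsm4 was the most abundant in siNC, at 61.8, 63.0 and 67.3 RPKM, and was at 72.6, 76.2 and 68.9 RPKM in siQk (0.03). Lsm7 was the least abundant, at 1.94, 1.73 and 2.03 RPKM in siNC and 2.32, 3.02 and 2.43 RPKM in siQk (0.29, SE 0.16, not called). Lsm3 was at 60.7, 56.8 and 70.0 RPKM in siNC and at 83.5, 73.0 and 34.6 RPKM in siQk. The groups overlapped because siQk replicate 3 was lower than any other library, and the log2 fold change was −0.13 with that library and 0.17 without it, not called in either fit. Lsm8 is listed under its older symbol Naa38 and is outside the rule. It was at 50.3, 50.9 and 47.6 RPKM in siNC and at 60.7, 61.4 and 57.4 RPKM in siQk (0.12, not called).

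The other LSm genes serve other RNAs, and here the directions were mixed: of 6 genes, Lsm11 and Lsm1 rose, Lsm14a fell, and 3 of the 6 log2 fold changes were below 0. Lsm11, a part of the U7 snRNP that processes histone mRNAs, was the least abundant of the 48 genes. It was at 0.709, 0.744 and 0.768 RPKM in siNC and at 1.38, 1.36 and 1.01 RPKM in siQk. The groups did not overlap and the gene rose by 0.60 (SE 0.14, adjusted p = 0.0188, edgeR), but siQk replicate 3 was much nearer to siNC than the other two, and the call was lost in all 5 fits without another library (0.52 to 0.61). Lsm10, its partner in the U7 ring, had a log2 fold change of −0.27 and was not called (adjusted p = 0.182, edgeR). Lsm1 was at 3.64, 4.01 and 4.23 RPKM in siNC and at 5.34, 5.11 and 5.14 RPKM in siQk. It rose by 0.24 (adjusted p = 0.0281, edgeR), and the call was lost whichever library was left out (0.22 to 0.27). Lsm12 had a log2 fold change of −0.02, and of 0.13 without TMM factors.

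Lsm14a was the core gene that fell. Its protein binds mRNA in processing bodies, the cytoplasmic granules where translation is held back and mRNAs are stored or decayed. It was at 80.8, 92.3 and 94.6 RPKM in siNC and at 64.8, 66.7 and 62.8 RPKM in siQk. All siQk libraries were below all siNC libraries, with means of 89.2 ± 7.38 and 64.8 ± 1.95 RPKM (SD, n = 3). The gene, at chr7:34344144-34390026 of mm10, fell by 0.61 on the log2 scale (SE 0.058, adjusted p = 0.00101, edgeR), and by 0.59 to 0.64 with any library left out. Its paralog Lsm14b was at 42.2, 45.4 and 35.2 RPKM in siNC and at 58.5, 59.4 and 55.7 RPKM in siQk. These groups did not overlap either, in the opposite direction, but Lsm14b was not called (log2 fold change 0.34, SE 0.11, adjusted p = 0.0515, edgeR). Without siNC replicate 3, the lowest library, it was 0.22 and called (adjusted p = 0.0319, edgeR).

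Qki proteins bind RNA at the sequence ACUAAY, where Y is C or U. The words ACTAAC and ACTAAT were counted on the sense strand of the 3′UTR annotated for each gene, taking the longest (GENCODE M21, 50 bases or longer). At least 1 word was found in 13 of the 48 core genes (27.1%) and in 37.0% of 11850 tested genes. These shares are not adjusted for length, and the median 3′UTR was 724 bases in the core genes and 1480 in the tested genes. Some 3′UTRs taken in this way are longer than the exons counted for the gene, as for Lsm12 (1578 against 1224 bases). Any transcript with an annotated stop codon was allowed, so some 3′UTRs may hold bases that other transcripts of the gene translate. This was not checked. The core genes held 26 words in all, 4 of them in Lsm14a, or 0.40 per kilobase, against 0.329 per kilobase over all tested genes. By call, 7 of the 17 genes that rose had a word (41.2%), with 0.436 words per kilobase and a median 3′UTR of 1300 bases. Of the 30 genes not called, 5 had a word (16.7%), with 0.277 per kilobase and a median of 692 bases. Lsm14a had 4 words in 1346 bases, 2.97 per kilobase, which was the highest density among the core genes. At least 4 words were present in 2.53% of tested genes and at least this density in 1.03%. Snrpb2, which rose, was next with 1.54 per kilobase, followed by Lsm12, which was not called (−0.02), with 1.27. Prpf39, which rose, had 4 words in 3729 bases, or 1.07 per kilobase. Neither Lsm14b nor Sf3b3 had a word. The 4 words of Lsm14a are shown in capitals, each with 12 bases on either side, since this was the core gene that fell. They lie on the minus strand of chr7 (GRCm38) at chr7:34345608-34345637, chr7:34345262-34345291, chr7:34344795-34344824 and chr7:34344728-34344757, in their order along the 3′UTR. No binding was measured in these libraries, and which 3′UTR the mOPCs use was not analysed here.
Lsm14a word 1: gattttcttatcACTAATtaattgtattcg
Lsm14a word 2: gtataaaaagcaACTAATtttttaaagaat
Lsm14a word 3: ctgtaaaacatcACTAACatagtatgcggg
Lsm14a word 4: taactgtaaattACTAATaaatcttttttg

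**Figure D4:**
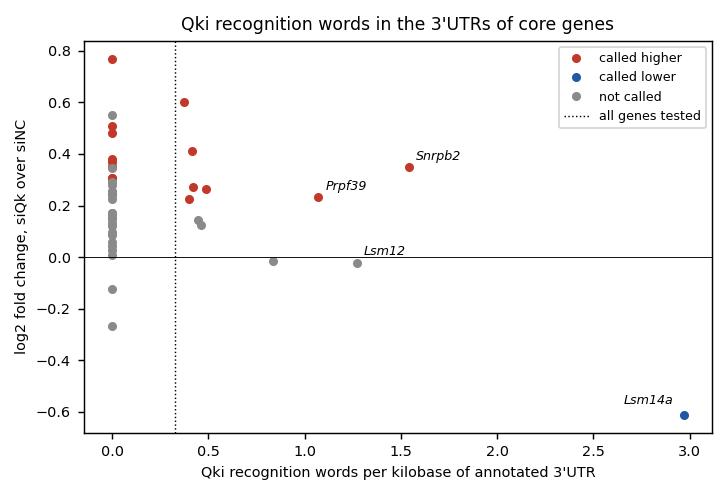
Number of ACTAAC and ACTAAT words per kilobase of annotated 3′UTR (x axis) against the log2 fold change of siQk over siNC (y axis) for 47 of the 48 core genes, coloured by call; the dotted line is the density over all tested genes, 0.329 per kilobase. Lsm14a stands at 2.97 words per kilobase and −0.61, Snrpb2 and Prpf39 at 1.54 and 1.07 words per kilobase with values above 0, and Lsm12 at 1.27 and −0.02.

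Ratios of 5 gene pairs, 4 of which are given, were compared within each library, since such a ratio does not depend on how libraries are scaled. The ratio of Lsm14b to Lsm14a was 0.522, 0.493 and 0.372 in siNC and 0.904, 0.889 and 0.887 in siQk. Lsm14a was thus more abundant than Lsm14b in every library, and the paralogs were close to equal per length in siQk. The log2 ratio was 0.97 higher in siQk, or 1.95-fold (exact permutation test, two-sided, p = 0.1, adjusted p = 0.25 over 5 pairs).

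The ratio of U2af1l4 to U2af1 was 0.333, 0.350 and 0.296 in siNC and 0.260, 0.294 and 0.288 in siQk. The groups did not overlap, by a narrow gap, and the log2 ratio differed by −0.22, siQk minus siNC (exact permutation p = 0.1, adjusted p = 0.25). For Lsm1 to Lsm8 and Snrpn to Snrpb the groups overlapped, with log2 differences of 0.13 and −0.03 (exact permutation p = 0.3 and 0.8, adjusted p = 0.375 and 0.8). The SD of the Snrpn to Snrpb log2 ratio was 0.10 in siNC and 0.14 in siQk, larger than the difference, whose sign changed when siNC replicate 2 or siQk replicate 2 was left out.

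**Figure D5:**
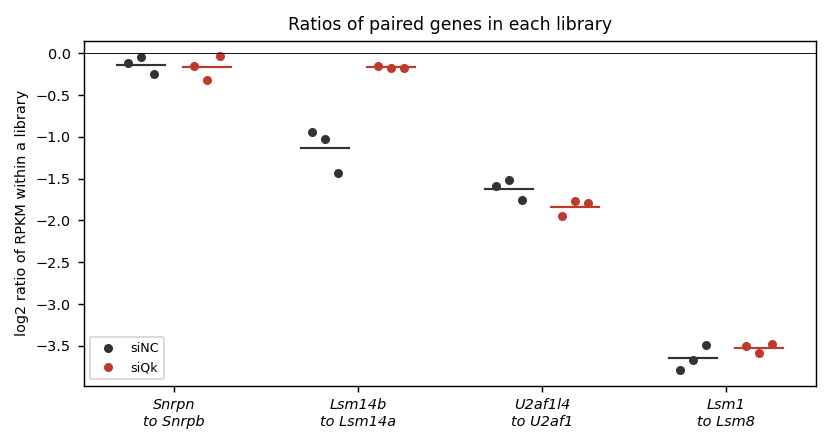
Log2 ratio of RPKM of 2 genes within each library for 4 pairs, siNC in black and siQk in red. Points are libraries and lines the group means; the groups are apart for Lsm14b to Lsm14a (0.97 higher in siQk) and by a narrow gap for U2af1l4 to U2af1, and overlap for the others.

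Other genes of the same pathway were taken from 3 lists, of 104 genes tested in all. Of these, 18 rose (17.3%) and 6 fell (5.77%), against 13.8% and 17.2% of all genes tested. Called genes made up 23.1% of the lists and 31.0% of all genes tested, and the median log2 fold change was 0.12 in the lists. The count of called genes was 11 without siQk replicate 1 (10.6%, against 19.8% of all genes) and 13 without siQk replicate 2 (12.5%, against 21.5%).

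Of 23 proteins of the U1, U4/U6, U5 and minor snRNPs, 3 rose and 2 fell. Sart3, which helps to rejoin U4 and U6, rose by 0.34, the helicase gene Dhx15 by 0.24, and Snrnp70, the U1 protein U1-70K, by 0.23. Zrsr1, a relative of U2af1, fell by 0.84 (adjusted p = 0.000895, edgeR) from 6.403 ± 0.0734 to 3.98 ± 0.194 RPKM (SD, n = 3), the lowest value in the 3 lists. Rnpc3, a protein of the minor spliceosome, fell by 0.28.

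Of 55 genes of the A, B and C complexes, 8 rose and 2 fell. Among those that rose were Luc7l, a U1-associated factor, at 0.43, and Acin1 and Ctnnbl1, at 0.35 each. Syf2 fell by 0.52 (adjusted p = 0.00253, edgeR) and Cwc15 by 0.41 (adjusted p = 0.00320, edgeR), both for proteins of the assembled spliceosome.

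Of 26 genes for snRNP assembly, 7 rose and 2 fell, with a median log2 fold change of 0.23. Coil, the scaffold of Cajal bodies where snRNPs mature, rose by 0.51, and Larp7, a binder of small nuclear RNAs, by 0.41. Prmt5, the enzyme that methylates Sm proteins, rose by 0.43, and Cpsf3l, which the tables give for the Integrator nuclease that trims small nuclear RNAs, by 0.35. Clns1a, which holds Sm proteins for Prmt5, fell by 0.30 (adjusted p = 0.0116, edgeR), and Strap, of the complex that loads the Sm ring, fell by 0.31 (adjusted p = 0.0107, edgeR).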

How the data were processed

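Messenger RNA of mOPCs was sequenced by the authors in 6 libraries, 3 siNC and 3 siQk, and aligned to mm10 with OLego. Genes were quantified with Quantas (versions and gene annotation not given in the sources used here). Per library the authors deposited the expected count of tags per gene, without normalization, and RPKM. RPKM was recomputed from the deposited tags, exon length and library total for 100% of genes. The sources do not say if tags are single reads or pairs. Paralogs and overlapping genes could share reads, since counting was without strand: 9 of the core genes overlap another listed gene.

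Expected counts were rounded. The total per library (58166490 to 141045937 tags) limits precision less than the spread between libraries, with a chi-square per degree of freedom of 36.5 or more between libraries of a group, so that each counted as 1 replicate. Genes with an average logCPM over 0 (12505) were tested with the edgeR 4.0.16 quasi-likelihood test (limma 3.58.1, R 4.3.3), TMM factors and group as the only term. A call needed P below 0.01 and FDR below 0.1 (Benjamini-Hochberg over all genes tested). The script was tested on simulated data. Ratios were compared by exact permutation tests. DESeq2 1.42.0, other scalings, filters and cutoffs and leaving out each library were alternatives. Rn45s, a ribosomal RNA, took 3.12% of tags in siNC replicate 1 and 0.169% to 0.389% elsewhere. Leaving it out of the totals was chosen after seeing the data.

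The core genes, role groups and gene lists were chosen with earlier results of these data known. Per-library values are given for called core genes with a log2 fold change of 0.4 or more in size, for the ratio pairs and for the highest and lowest gene of each role group. Snrpe, Lsm3 and the ratio of Sf3b3 to Sf3b1 were singled out after their values were seen. Of each pathway list, up to 4 called genes at either end are named. Some genes that these rules give are left out of the text and plots. Promoters from RefSeq were matched for 38 of the 48 genes.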

Additional observations from a re-analysis of the deposited data

How the results depend on the processing

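Single core genes kept their call, or stayed uncalled, in 714 of 816 comparisons (48 genes, 17 settings), with 71 calls lost and 31 gained. No called gene changed sign, while some uncalled genes near 0, such as Prpf4, Lsm12, Lsm3 and U2af2, did. Against 18 core genes called changed, 17 higher and 1 lower, the counts were 31 and 30 without TMM factors for changed and higher. They were 0 changed, 0 higher and 0 lower at FDR below 0.05 with a log2 fold change of 1 or more in size. Leaving out libraries gave 7 to 17 changed and 6 to 16 higher (fewest without siQk replicate 1), while the lower gene stayed 1. DESeq2 called 20 higher, where 17.7% of all genes were. The median log2 fold change of 0.23 became 0.29 with upper quartile factors, where that of all genes was 0.07, and 0.38 without TMM factors. Genes of the 3 other pathway lists called changed, 24, were 37 with DESeq2 (35.6%, against 39.1% of all genes), 48 without TMM factors (46.2%, against 34.8%), 0 at the cutoff of 1 (against 7.56%), and 11 to 25 with a library left out. The Snrpn to Snrpb ratio on the log2 scale ranged from −0.0927 to 0.0467 with a library left out, at 0.0194 without siNC replicate 2 and 0.0467 without siQk replicate 2. The change of Qk kept its direction and call throughout. Leaving out Rn45s, chosen after seeing the data, gave 17 higher and 1 lower. The cause of these changes was not tested, other than fewer libraries or a stricter cutoff.

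The labels do not say if siNC and siQk libraries with the same number were paired. The correlation of the deviations of such libraries was −0.0528, −0.152 and −0.34. These values show no sign of pairing, but with so few libraries they cannot settle it. With the replicate number as a block, 9 core genes were called, 8 of them higher, against 9.32% of all genes, and 12 genes of the other pathway lists (11.5%, against 22.4% of all genes called).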
